A study of Danio rerio with 6 samples.

Results

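Collagens and other extracellular matrix genes were followed in the livers of male zebrafish (Danio rerio) exposed to estrogenic compounds in tank water. The members were the genes whose file name starts as a collagen chain (col, a number, a, a number) together with 18 listed names of adhesive, matricellular, proteoglycan, protease, inhibitor and contractile genes. Of the 18 listed names, 17 occurred in the files and loxa did not. The rule gave 75 genes of 31953, 58 by collagen name and 17 by listed name. The name pattern also caught col4a3bpa and col4a3bpb, which encode ceramide transfer proteins and not collagens, so 56 of the 58 were collagen genes. The names col6a3 and col19a1 each occur for a pair of gene IDs, and 1 ID of each had no reads.

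Total RNA of liver was sequenced in 3 groups of 2 libraries, each group from 1 tank of 80 L with 40 fish, after 3 weeks of continuous flow-through exposure. The E2 group received 1000 nM 17β-estradiol, the main natural estrogen of vertebrates. The NP group received 100 nM nonylphenol, an alkylphenol that can bind estrogen receptors. The control group received ethanol, in which both compounds were dissolved, and all groups were males of unstated strain and age. Nothing in the labels tells if 1 fish or a pool went into each library, and the p-values therefore cover library-to-library spread that could be technical. The effect of a treatment and that of its tank cannot be told apart. The doses of the compounds differ, so E2 and NP values are set side by side and not compared with each other. Both comparisons use the same control libraries.

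The extracellular matrix of liver is a thin scaffold of fibrillar collagens, basement membrane collagens and adhesive glycoproteins. Hepatocytes secrete the circulating glycoproteins vitronectin and fibronectin, whereas in mammals most fibrillar collagen of injured liver comes from activated stellate cells and portal fibroblasts. Matricellular proteins such as TGF-beta-induced protein, periostin and SPARC bind collagens or integrins and tune how cells attach to the matrix. Matrix metalloproteinases cut these proteins and TIMPs inhibit the proteases.

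The deposited values are the authors' 2 comparisons, with a mean normalised read count, a log2 fold change and its standard error for each gene. Whole reads of each library were recovered from the deposited means for 54 of the 55 members with reads, and not for fn1b. Recovery was tried only for genes with a deposited mean of at most 250 in the E2 comparison, and fn1b lay above that. The 2 libraries of a group are called a and b by size factor, a being the larger, because they could not be tied to a sample. "Normalised reads" below are these reads divided by the library's size factor. The size factors were 5.92 and 1 in E2-a and E2-b, 8.07 and 7.83 in NP-a and NP-b, and 14.2 and 9.14 in control-a and control-b, relative to the smallest. A single read was thus worth 9.31 normalised reads in E2-b, against 0.655 to 1.57 in the other 5 libraries. At the mean level of the controls, E2-b would have held at least 3 reads of 5 recovered members: vtnb, vtna, tgfbi, col6a6 and timp2a. For the other recovered members, a level below the control mean was not detectable in E2-b. The 2 libraries of each group were also set beside each other over genes with at least 10 reads in the group. The median absolute log2 ratio, on normalised reads + 1, was 3.60 in E2, 0.51 in NP and 0.78 in controls. The E2 value depends on depth, because a single read in E2-b is worth 9.31 normalised reads. The mean chi-square against counts expected from the size factors was 9.27 in E2, 9.9 in NP and 18.5 in controls. Chi-square grows with the number of reads, so the groups are not ranked by spread. Intervals below cover counting error only.

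Matrix genes were a small part of the recovered reads and few of them passed the test in either comparison. Without fn1b, the members held 0.216% and 0.131% of the recovered reads in E2-a and E2-b, 0.795% and 0.687% in NP-a and NP-b, and 0.235% and 0.450% in control-a and control-b. These shares leave out all genes with a deposited mean above 250 in the E2 comparison, from members and total alike. With E2, 1 member fell, tgfbi, and none rose past an adjusted p of 0.05. With NP, 3 members rose (col1a1b, postnb and tgfbi) and none fell. These calls come from the authors' deposited Wald test with Benjamini-Hochberg adjustment.

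In the E2 table, 49 of the 75 members had reads and 7 had an adjusted p, which the authors gave from a mean of 12.6 normalised reads upward. The 1 fall among 7 stood beside 3.67% of all tested genes lower, and the 0 rises beside 2.1% higher. At an unadjusted p under 0.05 there were 3 members, 1 higher (col18a1) and 2 lower (tgfbi and col6a6). The share of all genes at that unadjusted p is not given here, so this count is a description. The median deposited log2 fold change was -1.57 over the 7 members and -0.22 over all 3241 tested genes. Over all 49 members with reads it was -0.39, against -0.52 over all genes with reads. Membership of the tested set depends on the mean over 4 libraries, so these counts and medians are descriptions.

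In the NP table, 54 members had reads and 16 had an adjusted p, given from a mean of 6.64 upward. The 3 rises among 16 stood beside 1.26% of all tested genes higher, and the 0 falls beside 1.68% lower. At an unadjusted p under 0.05 there were 7 members, all higher: col1a1b, postnb, tgfbi, col6a3, col1a1a, vtna and col1a2. The share of all genes at that unadjusted p is not given here, so no result about the members is read from this count. The deposited log2 fold change was positive for 13 of the 16, against 48.4% of all 6799 tested genes. Its median was 1.39 over the 16 members and -0.03 over all tested genes. Over all 54 members with reads the median was 0.25, against -0.08 over all genes with reads. Genes such as col1a1b, postnb and col1a1a, with control means of 1.86, 1.86 and 2.04 normalised reads, passed 6.64 through their NP reads. Entry to the tested set thus favoured rises, and the counts and medians of the 16 members are descriptions.

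**Figure D1:**
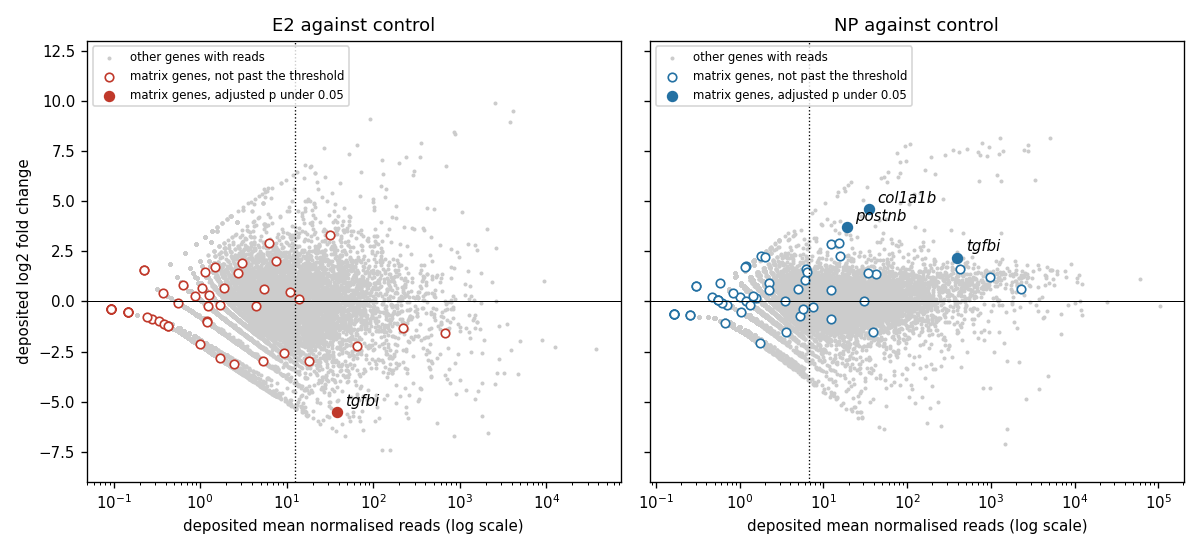
Deposited log2 fold change (vertical axis) against deposited mean normalised reads (horizontal log axis) for E2 against control and NP against control, with all genes with reads in grey, matrix genes as circles and those past an adjusted p of 0.05 filled. The dotted line marks the lowest mean with an adjusted p, 12.6 and 6.64 normalised reads; most matrix genes lie left of it.

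The same reads were also counted by library. Among recovered members with at least 10 reads over the 4 libraries of a comparison, 8 of 21 had both E2 libraries below both controls and 0 of 21 had both above. Of all genes at that depth, 36.5% lay below and 6.93% above in the same way. With the deeper library E2-a alone, 8 members lay below both controls and 7 above, beside 43.2% and 35% of all genes. For NP, 11 of 24 members had both libraries above both controls and 3 had both below, beside 19.7% and 23.1% of all genes. The 8 of 21 below the controls with E2 are a share near that of all genes. Genes such as col1a1b, postnb, col1a1a and col6a3 reached 10 reads in the NP comparison through their NP reads, so the NP counts are a description and no support for the calls.

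Among the matricellular genes, tgfbi fell with E2 and rose with NP. It encodes TGF-beta-induced protein, a secreted protein that binds collagens and integrins. Its gene ID is ENSDARG00000071586. It had 1 and 0 reads in E2-a and E2-b, 727 and 408 in NP-a and NP-b, and 140 and 170 in control-a and control-b. Both E2 libraries were near 0 and below both controls, and both NP libraries were above both controls. Its level was 0.787 ± 1.11 normalised reads in E2, 662 ± 250 in NP and 132 ± 57.6 in controls (SD, n = 2 each). At the control mean E2-b would have held 14.2 reads of tgfbi, and it held 0. The deposited log2 fold change was -5.52 ± 1.45 (SE) for E2, with an adjusted p of 0.00728. The ratio of summed reads, E2 over control, was 0.0109 with an exact 95% interval of 0.000275 to 0.0611. For NP the deposited log2 fold change was 2.19 ± 0.68 with an adjusted p of 0.0475, close to the threshold. On the recovered reads, limma-voom gave log2 fold changes of similar size, -5.45 for E2 and 2.36 for NP, with adjusted p values of 0.194 and 0.409. That test called 0 of 7088 genes in either comparison.

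Periostin, a matricellular protein related to TGF-beta-induced protein, is encoded by postna and postnb. The b copy rose with NP past the threshold, and the a copy had no adjusted p. The gene postnb (ENSDARG00000104267) had 25 and 0 reads in E2-a and E2-b, 33 and 29 in NP-a and NP-b, and 1 and 3 in control-a and control-b. Both NP libraries were above both controls, and the 2 E2 libraries lay on opposite sides of the controls. Its level was 36.3 ± 2.55 normalised reads in NP and 1.86 ± 1.70 in controls (SD, n = 2 each). For NP the deposited log2 fold change was 3.70 ± 1.02 with an adjusted p of 0.0135, and limma-voom gave 4.59 with an adjusted p of 0.378. For E2 the deposited log2 fold change was 2.93 ± 1.57 with no adjusted p. At the level of E2-a, E2-b would have held 4.23 reads of postnb, and it held 0. The a copy, postna, had 0 reads in both E2 and both NP libraries, against 9 and 1 in control-a and control-b. Of the 10 control reads, 9 were in control-a.

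SPARC, a collagen-binding glycoprotein, had 1 and 0 reads of sparc in E2-a and E2-b, 44 and 44 in NP-a and NP-b, and 13 and 26 in control-a and control-b. The NP libraries were above both controls and the E2 libraries below both. Deposited log2 fold changes were 1.43 ± 0.85 for NP, with an adjusted p of 0.718, and -2.95 ± 1.66 for E2, with no adjusted p. Neither difference passed the test.

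**Figure D2:**
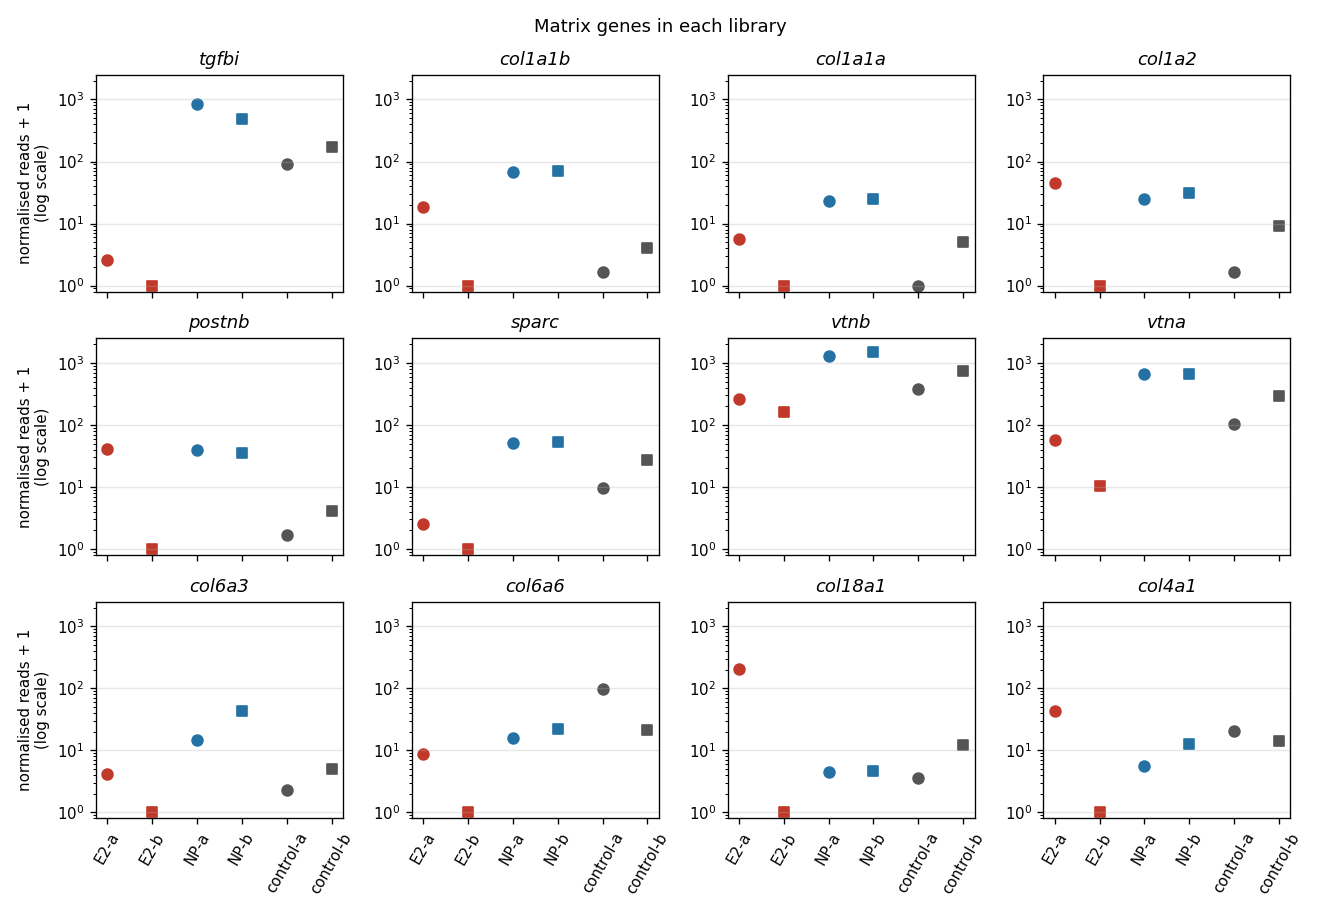
Normalised reads + 1 (vertical log axis) of 12 matrix genes in the libraries E2-a, E2-b, NP-a, NP-b, control-a and control-b; each point is 1 library and a value of 1 means 0 reads. The NP libraries lie above both controls for tgfbi, the type I collagen genes, postnb, sparc, vtnb, vtna and col6a3, and E2-b has 0 reads in 10 of the 12 panels.

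Type I collagen is the main fibril-forming collagen, built in zebrafish from the chains of col1a1a, col1a1b and col1a2. Its reads were high in both NP libraries, and 1 of the 3 genes, col1a1b, rose past the threshold. The gene col1a1b (ENSDARG00000035809) had 11 and 0 reads in E2-a and E2-b, 57 and 58 in NP-a and NP-b, and 1 and 3 in control-a and control-b. Its level was 67.4 ± 2.24 normalised reads in NP and 1.86 ± 1.70 in controls (SD, n = 2 each). In the authors' deposited table its log2 fold change for NP was 4.59 ± 0.94 with an adjusted p of 1.41e-04, the smallest of any member in either table. In limma-voom the log2 fold change was 5.47 with an adjusted p of 0.172. Leaving out 1 library at a time, the log2 ratio of the recovered means stayed between 4.08 and 5.37.

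The other chains of type I collagen had fewer reads. Those of col1a2 were 28 and 0 in E2-a and E2-b, 21 and 25 in NP-a and NP-b, and 1 and 8 in control-a and control-b. The reads of col1a1a were 3 and 0 in E2-a and E2-b, 19 and 20 in NP-a and NP-b, and 0 and 4 in control-a and control-b. For both genes the NP libraries were above both controls, with deposited log2 fold changes of 2.25 ± 1.05 for col1a2 (adjusted p = 0.443) and 2.88 ± 1.13 for col1a1a (adjusted p = 0.220), which did not pass the test. Summed over the 3 genes, type I collagen had 66.1 and 0 normalised reads in E2-a and E2-b, 112 and 122 in NP-a and NP-b, and 1.31 and 15.3 in control-a and control-b. The E2 libraries did not share a level: 42 type I reads in E2-a correspond to 7.10 reads in E2-b, which had 0. None of the 3 genes had an adjusted p for E2, with deposited log2 fold changes of 1.93 ± 1.69 for col1a1b, 2.02 ± 1.57 for col1a2 and 0.34 ± 1.97 for col1a1a.

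Of the other fibril-forming chains, col5a1, a chain of type V collagen that joins type I fibrils, was the only one with over 10 reads in all. It had 8 and 0 reads in E2-a and E2-b, 15 and 11 in NP-a and NP-b, and 22 and 4 in control-a and control-b. The groups overlapped, and the deposited log2 fold change was -0.21 ± 1.56 for E2 and 0.59 ± 1.03 for NP (adjusted p = 0.999 for NP).

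Type VI collagen forms beaded filaments around cells, and its chains did not move together. The gene col6a3 had 2 and 0 reads in E2-a and E2-b, 12 and 36 in NP-a and NP-b, and 2 and 4 in control-a and control-b, with NP above both controls. Its deposited log2 fold change for NP was 2.89 ± 1.05 with an adjusted p of 0.143. The gene named col6a6 in the files had 5 and 0 reads in E2-a and E2-b, 13 and 18 in NP-a and NP-b, and 148 and 20 in control-a and control-b. In normalised reads the controls stood at 97.0 and 20.4 for this gene, with NP-b inside that range. Both E2 libraries were below both controls. For col6a6 the deposited log2 fold change was -2.98 ± 1.40 for E2 (adjusted p = 0.203) and -1.52 ± 0.88 for NP (adjusted p = 0.704), so neither passed. The chains col6a1 and col6a2 had 28 and 21 reads in all 6 libraries together, and neither had an adjusted p.

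Basement membrane collagens showed no called change. The gene col4a1, a chain of the type IV network, had 27 and 0 reads in E2-a and E2-b, 4 and 10 in NP-a and NP-b, and 30 and 13 in control-a and control-b. Both NP libraries were below both controls, and the deposited log2 fold change for NP was -0.85 ± 1.02 (adjusted p = 0.999). The gene col18a1, a basement membrane collagen whose C-terminal piece is endostatin, had 131 and 0 reads in E2-a and E2-b, 3 and 3 in NP-a and NP-b, and 4 and 11 in control-a and control-b. It was high in 1 library, E2-a, whose 131 reads correspond to 22.1 reads in E2-b, which had 0. For E2 its deposited log2 fold change was 3.33 ± 1.47 with an adjusted p of 0.163. Without E2-a the log2 ratio of the recovered means was -2.98, set by 0 reads in E2-b and the pseudocount. At the control mean E2-b would have held 0.743 reads of col18a1, so it could not show a fall.

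**Figure D3:**
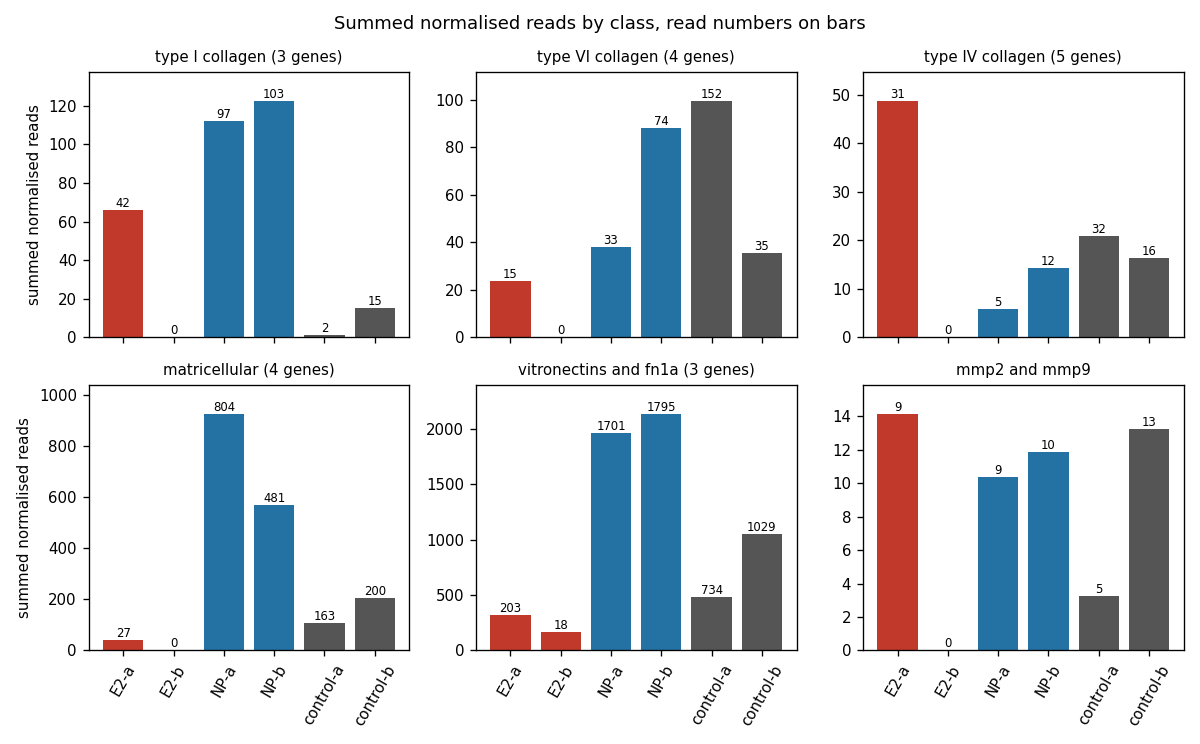
Summed normalised reads (vertical axis, from 0) of 6 classes of matrix genes in the libraries E2-a, E2-b, NP-a, NP-b, control-a and control-b, with the number of reads above each bar. Type I collagen stands at 112 and 122 in the NP libraries against 1.31 and 15.3 in the controls, while type VI and type IV collagen do not separate NP from control in the same way.

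The adhesive glycoproteins carried most member reads, and none of them passed the test. Vitronectin, a plasma protein made by hepatocytes that binds integrins, is encoded by vtna and vtnb. The gene vtnb had 167 and 17 reads in E2-a and E2-b, 1134 and 1237 in NP-a and NP-b, and 578 and 730 in control-a and control-b. The gene vtna had 36 and 1 reads in E2-a and E2-b, 564 and 550 in NP-a and NP-b, and 155 and 283 in control-a and control-b. For both copies the E2 libraries lay below both controls and the NP libraries above both. In normalised reads, vtnb was 211 ± 73.9 in E2, 1390 ± 114 in NP and 561 ± 258 in controls (SD, n = 2 each). Likewise vtna was 33.0 ± 33.5 in E2, 653 ± 2.06 in NP and 195 ± 132 in controls.

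The deposited log2 fold changes for E2 were -1.31 ± 1.03 for vtnb (adjusted p = 0.544) and -2.22 ± 1.20 for vtna (adjusted p = 0.296). For NP they were 1.24 ± 0.66 for vtnb (adjusted p = 0.60) and 1.64 ± 0.70 for vtna (adjusted p = 0.326). Fibronectin 1, which links collagen to integrins, is encoded by fn1a and fn1b. The b copy had the highest deposited mean of any member in both tables, 674 and 2291 normalised reads, and its reads per library were not recovered. Its deposited log2 fold change was -1.57 ± 0.97 for E2 (adjusted p = 0.394) and 0.61 ± 0.65 for NP (adjusted p = 0.999). The a copy had 0 and 0 reads in E2-a and E2-b, 3 and 8 in NP-a and NP-b, and 1 and 16 in control-a and control-b. Nearly all control reads of fn1a were in control-b, and without that library the log2 ratio of the recovered means for E2 was -0.73, against -3.24 with it.

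**Figure D4:**
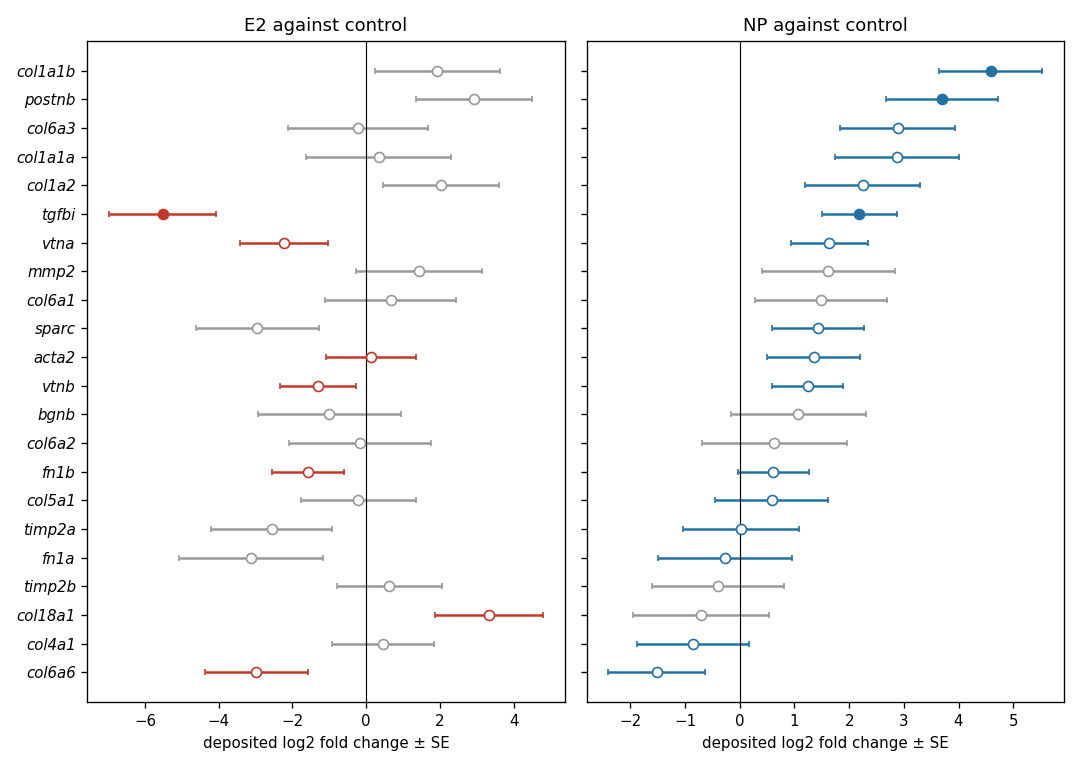
Deposited log2 fold change with its standard error (horizontal axis) of 22 matrix genes for E2 against control (left) and NP against control (right); filled points passed an adjusted p of 0.05, open coloured points did not, and grey points have no adjusted p. Only tgfbi is filled for E2, at -5.52, and col1a1b, postnb and tgfbi are filled for NP, at 4.59, 3.70 and 2.19.

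Proteases and their inhibitors were sparsely read. The gene mmp2, a gelatinase of mesenchymal cells, had 9 and 0 reads in E2-a and E2-b, 8 and 9 in NP-a and NP-b, and 1 and 4 in control-a and control-b. The NP libraries lay above both controls, with a deposited log2 fold change of 1.62 ± 1.22 and no adjusted p. The gene mmp9, a gelatinase of leukocytes, had 0 and 0 reads in E2-a and E2-b, 1 and 1 in NP-a and NP-b, and 4 and 9 in control-a and control-b. Both compounds' libraries lay below the controls. The ratio of summed mmp9 reads, NP over control, was 0.226 with an exact 95% interval of 0.0248 to 0.998, which covers counting error only. Its deposited log2 fold change was -2.82 ± 1.97 for E2 and -1.52 ± 1.35 for NP, with no adjusted p in either comparison. At the control mean E2-b would have held 0.633 reads of mmp9, so it could not show a fall.

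The TIMP2 copies timp2a and timp2b showed no separation of the groups. Reads of timp2a were 3 and 0 in E2-a and E2-b, 35 and 17 in NP-a and NP-b, and 2 and 58 in control-a and control-b, so the controls alone spanned the NP values. For NP the authors' deposited log2 fold change of timp2a was 0.02 ± 1.05 (adjusted p = 0.999). Decorin, lumican and biglycan are small proteoglycans that bind collagen fibrils. The genes dcn and lum had 6 reads and 1 read in all libraries together, too few for a comparison. The biglycan gene bgnb had 1 and 0 reads in E2-a and E2-b, 10 and 5 in NP-a and NP-b, and 1 and 6 in control-a and control-b, and these groups overlapped.

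The gene acta2 is no matrix gene but encodes the smooth muscle actin that marks smooth muscle and, in mammals, activated stellate cells. It had 10 and 4 reads in E2-a and E2-b, 27 and 79 in NP-a and NP-b, and 20 and 31 in control-a and control-b. The groups overlapped in both comparisons. The deposited log2 fold change was 0.14 ± 1.23 for E2 (adjusted p = 0.970) and 1.35 ± 0.85 for NP (adjusted p = 0.771).

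The remaining members were at or near 0. Of the 54 recovered members, 23 had over 10 reads in all 6 libraries together and 31 had 1 to 10. A further 20 had no reads in either table. Those without reads include col4a3, col7a1, col8a1a, col8a1b, col10a1a, col11a2, col15a1b, col17a1a and col28a1. The FACIT collagens, which sit on the surface of fibrils, had 8 of 12 genes with reads and summed to 6 and 0 reads in E2-a and E2-b, 14 and 14 in NP-a and NP-b, and 11 and 3 in control-a and control-b. Within them, col12a1b had 1 and 5 reads in NP-a and NP-b and 0 in both controls and both E2 libraries, and col9a1b had 7 reads, all in NP-a. The cartilage collagen genes col2a1a and col2a1b had 3 and 2 reads in all. The ceramide transfer protein genes caught by the name pattern had 17 reads (col4a3bpa) and 5 reads (col4a3bpb), and neither had an adjusted p.

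Genes that make, anchor or remodel the matrix were examined in 6 lists outside the members, and none of the tested genes in these lists passed the threshold in either comparison. Collagen synthesis and processing enzymes had 7 tested genes for E2 and 11 for NP, with median deposited log2 fold changes of 0.72 and 0.17. Of the best-read genes, p4hb, a subunit of prolyl hydroxylase and a protein disulfide isomerase, was at 2.65 ± 1.21 for E2 (adjusted p = 0.184) and 0.22 ± 0.69 for NP (adjusted p = 0.999). The cyclophilin gene ppib, which helps collagen fold, was at 0.78 ± 1.16 for E2 (adjusted p = 0.784) and 0.48 ± 0.62 for NP (adjusted p = 0.999). The collagen chaperone gene serpinh1b was among 8 genes of that list with no reads.

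The TGF-beta pathway list had 7 tested genes for NP, with a median of 0.16. The ligand gene tgfb1a was at 0.17 ± 1.36 for E2 (adjusted p = 0.970), and smad3a, a signal transducer, at 0.48 ± 0.88 for NP (adjusted p = 0.999). Laminins and other basement membrane genes had 2 and 3 tested genes, with medians of 1.29 and 0.61. Among these, agrn, encoding the proteoglycan agrin, had 263 and 8 reads in E2-a and E2-b, 36 and 37 in NP-a and NP-b, and 22 and 27 in control-a and control-b. In normalised reads both E2 libraries, at 414 and 74.5, were above both controls, at 14.4 and 27.5. Its deposited log2 fold change of 3.24 ± 1.16 had an adjusted p of 0.0698 and did not pass. The nidogen gene nid1a was at -0.66 ± 1.15 for E2 (adjusted p = 0.825) and 0.61 ± 0.80 for NP (adjusted p = 0.999).

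Other matrix proteins had 0 tested genes for E2 and 5 for NP, with an NP median of -0.06, and mfap4, which is also on the macrophage marker list, was at -3.23 ± 1.18 for NP (adjusted p = 0.150). Other matrix proteases and inhibitors had 3 and 10 tested genes, with medians of -0.67 and -1.03. In that list ctsk, a collagen-degrading cathepsin, had 0 and 1 reads in E2-a and E2-b, 11 and 12 in NP-a and NP-b, and 210 and 10 in control-a and control-b, so the control value rested on 1 library. The sheddase gene adam10a was at 0.34 ± 1.36 for E2 (adjusted p = 0.941) and -0.88 ± 0.78 for NP (adjusted p = 0.996). Integrins and other matrix receptors had 4 and 7 tested genes, with medians of 0.48 and 0.34. The integrin gene itgb1b.2 had 6 and 1 reads in E2-a and E2-b, 276 and 309 in NP-a and NP-b, and 24 and 145 in control-a and control-b, with a deposited log2 fold change for NP of 1.89 ± 0.84 (adjusted p = 0.376). The fibronectin receptor gene itga5 was at 2.97 ± 1.31 for E2 (adjusted p = 0.162), a value that rested on 1 library. In normalised reads itga5 was at 263 and 9.31 in E2-a and E2-b, against 13.8 and 13.2 in control-a and control-b. The syndecan gene sdc4 was at -1.86 ± 0.75 for NP (adjusted p = 0.252).

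Markers of the cells that could carry these transcripts were summed in the same libraries. For stellate cells and fibroblasts, 14 markers had reads and 9 were at 0 in every library, among them desma, desmb, gfap, fap and prrx1a. Their summed level was 258 and 298 normalised reads in E2-a and E2-b, 64.7 and 74.9 in NP-a and NP-b, and 95.04 and 72.3 in control-a and control-b. The list's level in E2 came largely from rgs5a in E2-a and from pdgfrl, a PDGF receptor-like gene. Reads of pdgfrl were 22 and 27 in E2-a and E2-b, 2 and 1 in NP-a and NP-b, and 2 and 1 in control-a and control-b, and it rose with E2 (deposited adjusted p = 0.00189). Some markers were lower in both E2 libraries than in both controls: tagln was at 6.30 and 9.31 normalised reads in E2-a and E2-b, against 29.5 and 21.4 in control-a and control-b, and lrata at 0 and 0, against 4.59 and 5.09. In E2-b the tagln value was 1 read, and the control level of lrata lay below the worth of 1 read. Others did not lie below both controls: hand2 was at 1.57 and 27.9 in E2-a and E2-b, against 2.62 and 4.08 in control-a and control-b. Likewise myl9b was at 14.2 and 9.31, against 13.1 and 5.09. With NP, 4 markers of this list were tested and 0 were called. The part of these cells in the matrix results was not tested.

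Sums of markers of other tissues separated the groups for some lists and not for others. Endothelium markers, at 60.035 and 65.4 in NP-a and NP-b, overlapped the controls, at 62.9 and 74.4 in control-a and control-b. In E2-a and E2-b they were at 51.9 and 196, on opposite sides of both controls. Of the 196 in E2-b, vwf made up 168 and cdh5 the rest. The rise of vwf with E2 rested on 5 and 18 reads in E2-a and E2-b, against 3 and 0 in control-a and control-b. The marker lyve1a had 1 read in E2-a and 1 in each control, too few for a comparison. In E2-a, fli1a lay above both controls, with 12 reads against 4 and 10 in control-a and control-b. By contrast, kdrl lay below both controls, with 7 and 0 reads in E2-a and E2-b against 33 and 27. The markers egfl7, erg, pecam1, stab1, tek and tie1 had 0 reads in both E2 libraries. Their control levels lay below the worth of 1 read in E2-b. Exocrine pancreas markers summed to 217 and 2794 normalised reads in E2-a and E2-b, 12781 and 44467 in NP-a and NP-b, and 55.1 and 240 in control-a and control-b. Of these markers, 13 of the 14 tested ones rose with NP, and 2 of the 10 tested ones rose with E2 (prss59.1 and cpb1). All 21 hepatocyte markers found in the files had reads, and the 6 whose reads were recovered summed to 655 and 503 in E2-a and E2-b, 3356 and 3380 in NP-a and NP-b, and 1035 and 2338 in control-a and control-b. Of the NP sums, serpina1l made up 1794 and 1959 in NP-a and NP-b, against 126.5 and 692 in control-a and control-b. Both NP libraries also lay above both controls for cyp2ad2, but not for apobb.2, ttr, cyp3a65 and the recovered gene ID named hp. Of 20 tested hepatocyte markers, 5 fell and 0 rose with E2, with a median deposited log2 fold change of -1.71. Of 21 tested with NP, 1 fell (a gene ID named hp) and 0 rose, with a median of 0.34. Another gene ID named hp was not called and was at 632 and 293 in NP-a and NP-b, against 570 and 525 in control-a and control-b. Macrophage markers summed to 244 and 121 in E2-a and E2-b, 173 and 249 in NP-a and NP-b, and 1405 and 847 in control-a and control-b. Blood cell markers summed to 28.3 and 83.8 in E2-a and E2-b, 249 and 667 in NP-a and NP-b, and 57.7 and 57.1 in control-a and control-b, and alas2 and hbaa1 among them rose with NP. Intestine markers summed to 20.5 and 121 in E2-a and E2-b, 2233 and 2157 in NP-a and NP-b, and 457 and 1711 in control-a and control-b. Nearly all of the NP sums was apoa4b.1, at 2227 and 2150 in NP-a and NP-b. That gene was at 456 and 1122 in control-a and control-b, and it fell with E2 (deposited adjusted p = 0.0431). By contrast, fabp2 set control-b apart. It was at 0 and 9.31 in E2-a and E2-b, 0 and 3.57 in NP-a and NP-b, and 0 and 345 in control-a and control-b. The part of these markers in the matrix results was not tested. In bulk liver RNA, fewer cells of a type and less RNA per cell cannot be told apart.

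**Figure D5:**
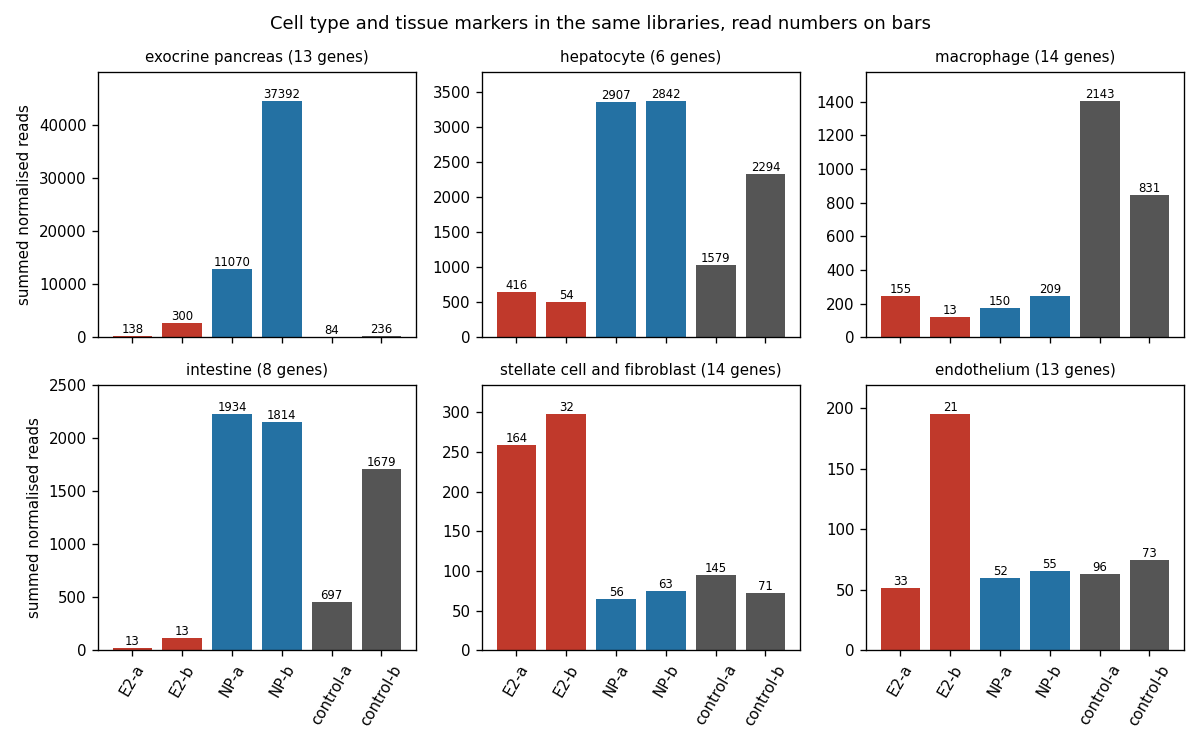
Summed normalised reads (vertical axis, from 0) of 6 lists of cell type or tissue markers in the libraries E2-a, E2-b, NP-a, NP-b, control-a and control-b, with the number of reads above each bar. Stellate cell and fibroblast markers are at 64.7 and 74.9 in NP against 95.04 and 72.3 in controls, while exocrine pancreas markers are at 12781 and 44467 in NP against 55.1 and 240 in controls.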

How the data were processed

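Liver RNA of 6 libraries was sequenced by the submitters. The build was GRCz10 and the tools were TopHat2, HTSeq and DESeq2, per the submitters' processing notes, which give no versions. Per the file headers, the authors deposited 2 comparison tables of 32760 rows for 31953 gene IDs, and rows repeating an ID held identical values. The deposited signal of a gene averages its normalised read count in the 4 libraries compared. The deposited log2 fold change, its standard error and a score (Wald statistic), with the p-value and adjusted p-value, are the authors' own. The planned design named a count test for tables with counts per library. These tables hold none, so the deposited Wald test is the main result, with a threshold of 0.05. No per-sample columns were left unused (0).

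The members and lists were chosen with earlier results of these data known. Named genes were the called members, the 6 with the highest mean in each table, a set of named matrix genes and the 3 largest rises and falls with a mean of at least 5, and of each pathway list the called genes and the 2 with the highest mean. A gene of a pathway list is not reported here. The others were chosen after their values were seen.

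Whole reads were recovered by solving each gene's means in both tables for 6 whole numbers (Python 3.11.15, numba 0.67.0). Of 18593 genes with reads, 18363 had exactly 1 solution (98.8%), holding 40.1% and 36.1% of the summed means of the E2 and NP tables. In 12148 genes solved in each table alone, control reads were equal in all 12148. Recovered reads summed to 229638 and 19032 in E2-a and E2-b, 349352 and 381189 in NP-a and NP-b, and 505509 and 318775 in control-a and control-b. The alternative test was limma-voom (limma 3.58.1, R 4.3.3) on the 7088 genes with at least 30 reads over the 6 libraries. The recovery and this test were checked on simulated data. The spread simulated for limma-voom was a fixed setting and not taken from these libraries, so that check does not give its power here. Size factors of the E2 table were put on the scale of the NP table through the 2 control libraries. Ratios of reads have exact conditional binomial intervals (95%). Log2 ratios of recovered means use a pseudocount of 1 normalised read. Lists were matched by symbol, and reads shared between near-identical copies such as the a and b genes were not examined. Gene order in RefSeq's GRCz12tu was used only to find neighbouring members, and sequences are not analysed here.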

Additional observations from a re-analysis of the deposited data

How the results depend on the processing

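The calls depended on the test. Where the deposited test gave 1 member lower with E2 and 3 higher with NP, limma-voom on the recovered reads gave 0 and 0, also with TMM scaling, and between 0 and 0 when each library was left out in turn. In that test 0 of 7088 genes passed in either comparison, while 1063 (E2) and 581 (NP) had an unadjusted p under 0.05. Adjusting over every gene with a p-value, with no filter on low values, left 2 members higher with NP, tgfbi being lost at an adjusted p of 0.126. As log2 ratios of the recovered means, the median over the tested E2 members lay between -3.62 and -1.22 when each library was left out. For NP the deposited median was 0.25 over all members with a p-value. The median log2 ratio of the recovered means for NP lay between 1.18 and 2.67 when each library was left out.

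Without E2-b, an alternative chosen after seeing the data, 7 of 21 members in place of 0 lay above both controls (col18a1, mmp2, col1a2, col1a1b, col4a1, col6a1 and postnb), and the same 8 lay below. Of all genes at the same depth, 35% lay above and 43.2% below, so both member counts are near the share of all genes. Of the named members, 12 of 19 changed direction in at least 1 left-out library for E2 and 5 of 20 for NP. For E2 some of these changes were fixed by depth. Without E2-a, a member with 0 reads in E2-b and reads in the controls must give a negative log2 ratio. This holds for col18a1, col1a1a, col1a1b, col1a2, col4a1, mmp2 and postnb. The share of all genes that changed direction is not given here, so these counts are descriptions. The log2 ratio of the recovered means of tgfbi was -6.22 for E2 and 2.31 for NP with all libraries. With 1 library left out, it stayed between -7.06 and -5.70 for E2 and between 1.86 and 2.84 for NP. The value of -7.06 rests on 0 reads in E2-b, so the pseudocount sets its size. For postnb with NP the same ratio stayed between 3.20 and 4.49. The deposited log2 fold change of col6a3 for E2 was -0.23 and limma-voom gave 0.81. The cause was not tested. Depth limits the E2 comparison, since 3 reads in E2-b equal 27.9 normalised reads. No paired analysis was possible because the labels give the libraries no replicate numbers and the tables hold no columns per library.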

Other observations

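Several matrix genes occur as paired copies, and the copies did not always keep the same order of libraries. In normalised reads, postnb was 38.1 and 34.5 in NP-a and NP-b, against 0.655 and 3.06 in control-a and control-b, while postna was 0 and 0 in NP-a and NP-b, against 5.90 and 1.02 in control-a and control-b. For fibronectin, fn1a was 3.46 and 9.51 in NP-a and NP-b, against 0.655 and 16.3 in the controls, and its reads were few beside the deposited mean of 2291 normalised reads of fn1b in the NP table. The vitronectin copies moved the same way: vtna and vtnb both lay above the controls in NP and below them in E2. No difference between copies was tested.

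Type IV collagen chains are encoded in head-to-head pairs in vertebrates. In RefSeq's GRCz12tu gene order col4a1 and col4a2 are neighbours, and they had 84 reads and 1 read in all 6 libraries together. The neighbours col4a4 and col4a3 had 8 and 0 reads, and col4a6 and col4a5 had 2 and 1. The cause of the gap between col4a1 and col4a2 was not tested.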
